A study of Mus musculus with 31 samples.

Results

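The mammalian circadian clock was described through 10 genes, chosen by name: Arntl (which encodes BMAL1), Clock, Per1, Per2, Per3, Cry1, Cry2, Nr1d1, Nr1d2 and Dbp. All 10 are among the 24411 entries of the gene count table, and all 10 passed the filter on low counts that left 12337 genes for testing. The RNA-seq data are 9 libraries of sorted Ly6C-high monocytes, all from C57BL/6J mice. Healthy animals gave 3 of them, from blood (healthy blood), and 3 came from the blood of mice with a subcutaneous Lewis lung carcinoma, a transplanted mouse lung tumor line (LLC blood). The other 3 came from such tumors (LLC tumor). Sorting kept cells that were positive for CD11b and high for Ly6C, and discarded those with Ly6G or MHC-II. The labels give no age, no hour of collection and no statement that the RNA libraries of a group came from separate animals, so p-values measure the spread between these libraries, which may be technical. Since clock transcripts change with the hour, a difference between groups cannot be told apart from a difference in collection time.

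The clock is a feedback loop of transcription. BMAL1 and CLOCK bind E-box elements and switch on the Per and Cry genes, whose proteins return to the nucleus and repress BMAL1 and CLOCK. The same pair drives Nr1d1 and Nr1d2, which encode the repressors REV-ERB alpha and REV-ERB beta. These act on ROR elements in the Arntl gene, opposed by the activator encoded by Rora. Dbp is an output of the loop that acts on D-box elements, where the repressor encoded by Nfil3 competes with it. Arntl transcript therefore peaks when Dbp and Nr1d1 transcripts are low. In mice, Ly6C-high monocytes are known to carry a working clock, and their numbers in blood and their recruitment into tissue follow the time of day. Per1 is also an immediate early gene, induced through cAMP signaling and by glucocorticoids.

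These elements could be looked for in 13 promoter windows of 9 of the 10 genes. The promoter of Per2 was not analysed here. RefSeq windows of build GRCm38.p6, which run from 250 bases before a transcript's start to 50 bases after it, were searched on both strands. An E-box (CACGTG) was found in 2 of the 13 windows, those of Per1 and Cry1, and in 7.15% of all 32851 windows in the table. Its variant CACGTT was found in 3 windows, of Cry1, Cry2 and Nr1d1 (4.68% of all windows), and overlapped no E-box. A D-box (TTATGNAA) was found in 2 windows, of Per1 and Per3 (3.38%). The ROR element TAGGTCA was found in 1 window, of Arntl (2.61%), and the cAMP response element TGACGTCA in 0 (1.79%). Only exact matches were counted, so near matches and sites outside the windows are not covered. A match is a run of letters and does not show that a factor binds there.

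4 windows are shown 5' to 3' on the gene's own strand. They carry the element classes that join the loop, and Per1 and Nr1d1 are the genes whose levels differed most between groups. Capitals mark the matches. In the Per1 window (chr11:69098699-69098998, plus strand) they are the E-box and then the D-box. In the Nr1d1 window (chr11:98775328-98775627, minus strand) they are the E-box variant, read on the opposite strand. In the Arntl window (chr7:113207261-113207560, plus strand) they are the ROR element. In the Per3 window (chr4:151044616-151044915, minus strand) they are 2 D-boxes.
Per1: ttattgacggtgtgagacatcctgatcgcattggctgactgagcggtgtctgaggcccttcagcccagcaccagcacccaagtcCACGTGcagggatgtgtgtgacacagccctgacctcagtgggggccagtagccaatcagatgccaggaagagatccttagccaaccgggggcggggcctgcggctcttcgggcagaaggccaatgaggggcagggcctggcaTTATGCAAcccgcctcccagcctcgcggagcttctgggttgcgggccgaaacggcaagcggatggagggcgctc
Nr1d1: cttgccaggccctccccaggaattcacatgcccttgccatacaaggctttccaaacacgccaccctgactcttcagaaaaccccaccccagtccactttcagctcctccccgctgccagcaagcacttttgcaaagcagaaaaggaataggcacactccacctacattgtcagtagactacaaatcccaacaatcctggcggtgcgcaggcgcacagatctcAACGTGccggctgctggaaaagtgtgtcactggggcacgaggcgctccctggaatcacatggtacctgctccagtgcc
Arntl: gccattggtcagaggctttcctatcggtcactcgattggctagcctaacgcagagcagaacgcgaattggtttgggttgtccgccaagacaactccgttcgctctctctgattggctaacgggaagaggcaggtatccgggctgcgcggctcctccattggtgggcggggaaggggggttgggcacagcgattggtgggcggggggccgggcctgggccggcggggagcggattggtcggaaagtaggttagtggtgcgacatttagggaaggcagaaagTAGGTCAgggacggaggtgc
Per3: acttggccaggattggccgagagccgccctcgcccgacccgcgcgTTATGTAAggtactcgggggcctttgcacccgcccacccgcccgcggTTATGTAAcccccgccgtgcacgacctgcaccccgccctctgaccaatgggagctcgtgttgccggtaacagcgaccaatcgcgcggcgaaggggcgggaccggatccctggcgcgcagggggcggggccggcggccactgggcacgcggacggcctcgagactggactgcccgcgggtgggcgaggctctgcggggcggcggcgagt

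The libraries held 10457492 to 20706412 counts, and levels are given as CPM, the count scaled to the total of all counts in a library. All 8 monocyte markers were present in every group, and their sum was 32524 to 36424 CPM in healthy blood, 23280 to 26597 CPM in LLC blood, and 14742 to 19213 CPM for the tumor libraries. Most of that sum is Lyz2. The list moved in both directions from LLC blood to LLC tumor: Lyz2 and Ly6c2 were among those that fell, and Itgam, Cd14 and Fcgr1 rose. Of 6 fibroblast markers all were above 3 counts in LLC tumor, with sums of 936.1, 3467 and 3921 CPM in LLC tumor 1 to 3. In healthy blood their sum was at most 15.5 CPM. In LLC blood it was 408.9 CPM in library 1 and at most 1.93 CPM in libraries 2 and 3. Markers of NK and T cells summed to 199.97 to 548.0 CPM in healthy blood, 27.8 to 48.5 CPM in LLC blood and at most 6.03 CPM in the tumor libraries. Carcinoma or epithelial markers summed to 63.1 to 101.3 CPM in the tumor libraries and at most 2.73 CPM in blood, with Cldn4 at 0 throughout. Only Krt8, Krt18 and Cdh1 were called higher in tumor, and Krt19 and Epcam had means of 0.086 and 0.058 CPM there. The sum of platelet markers was also higher in tumor (138.4 to 222.1 against at most 19.6 CPM), with only Pf4 and Ppbp called higher. Itga2b was called lower in LLC tumor than in healthy blood, and Gp9 and Gp1bb were not tested. Erythroid markers were lower in tumor (at most 3.46 against 168.3 to 919.3 CPM), as was the sum of B cell markers (at most 4.43 against 10.4 to 166.5 CPM). The highest B cell sum is that of healthy blood 2, and healthy blood 1 and 3 were at 17.3 and 24.3 CPM. Of the B cell markers 2 were tested. Cd79b was called lower, and Ebf1 was not called (means of 0.26 CPM in LLC blood and 1.96 CPM in LLC tumor). The neutrophil sum, mostly Csf3r and Mmp8, was lower too (306.4 to 534.8 against 674.5 to 1261 CPM). Of 11 neutrophil genes 6 fell from LLC blood to LLC tumor, but against healthy blood only Csf3r was called. In LLC blood 4 were called higher than in healthy blood (Mpo, Elane, Ltf and Mmp8). The part of these cells in the tumor results was not tested. LLC tumor 1 stands apart in scale: its TMM factor, by which edgeR corrects for composition, was 0.798 against 0.968 to 1.07 in the other libraries, so its CPM read lower than its contribution to a fold change. Gene lengths were not used, so levels are compared between groups and not between genes. In such bulk samples fewer cells of a type and less RNA per cell cannot be told apart.

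Few of the clock genes differed between groups, and those called were all higher. In LLC blood against healthy blood 1 gene rose, Clock, and 0 fell. Among all genes tested, 14.0% were called higher there and 9.61% lower. In LLC tumor against LLC blood 2 rose, Per1 and Nr1d1, and 0 fell, against 29.6% higher and 31.7% lower among all genes. In LLC tumor against healthy blood 3 rose, Clock, Per1 and Nr1d1, and 0 fell, against 33.5% and 33.0%. Calls required an edgeR quasi-likelihood p under 0.05 after Benjamini-Hochberg adjustment over all genes. With upper-quartile factors, or library totals in place of TMM, the last comparison had 3 higher and 2 lower genes. At an unadjusted p under 0.05, edgeR had 2 genes lower in the first comparison (Per1 and Dbp), 0 in the second and 2 in the third (Nr1d2 and Dbp). DESeq2 called 1, 0 and 0 lower, and limma-voom 0 in each. The median log2 fold change of the 10 genes was -0.11, 0.11 and 0.37, beside -0.0092, -0.034 and -0.0025 for all genes. The shares of clock genes called were below those of all genes in each comparison and direction. Each pair of these comparisons shares 3 libraries, so they are not independent.

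**Figure D1:**
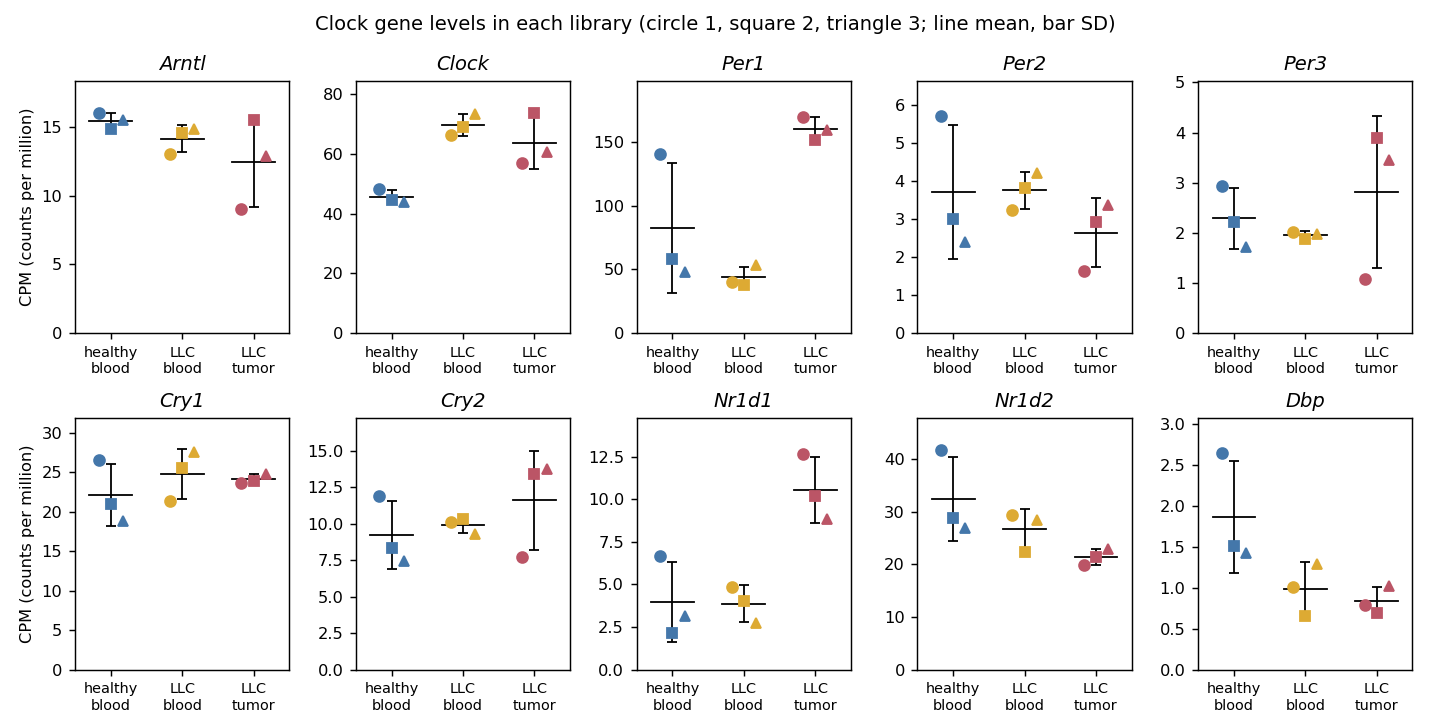
Level of each clock gene in CPM (vertical axis, from 0) in each of the groups; symbols are the single libraries, lines the means and bars the SD of 3 libraries. Clock is higher in all LLC libraries than in healthy blood, Per1 and Nr1d1 are highest in LLC tumor, and healthy blood 1 (circle) lies above the other healthy libraries in all 10 genes.

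**Figure D2:**
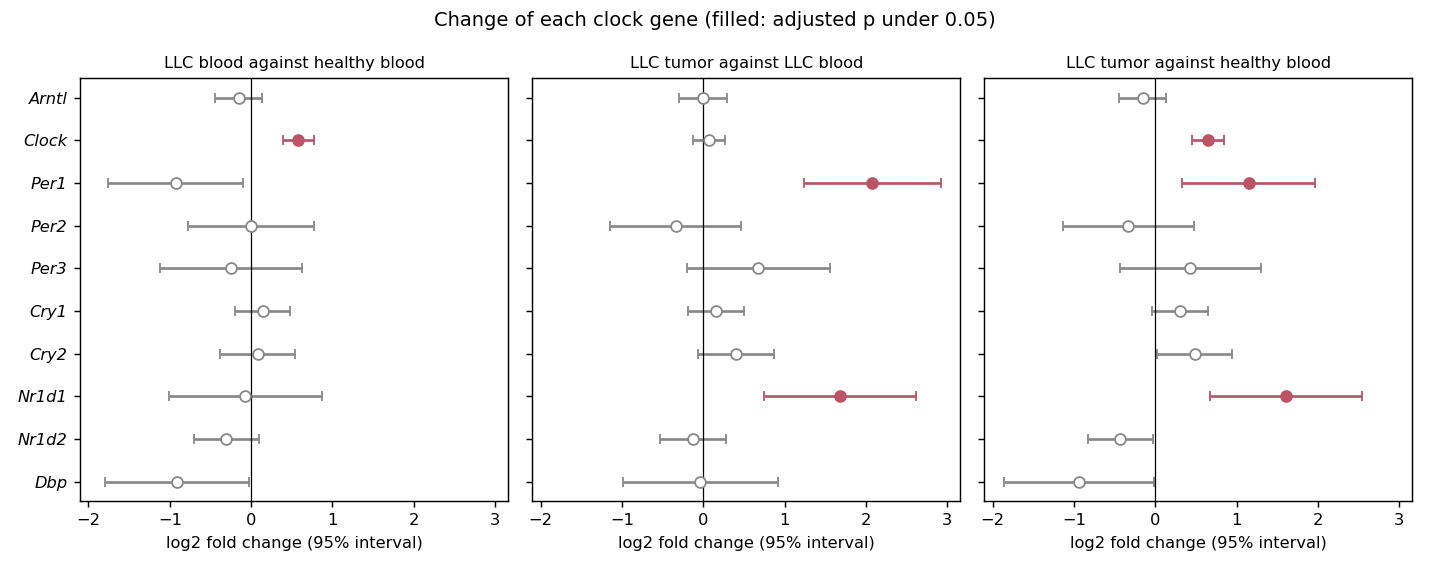
Log2 fold change of each clock gene (horizontal axis) in the 3 comparisons, with its 95% interval from the edgeR fit; filled points have an adjusted p under 0.05. Filled are Clock in the first panel, Per1 and Nr1d1 in the second, and all 3 in the last.

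Of the activator partners, Clock was called and Arntl was not. Clock (ENSMUSG00000029238, chr5:76209868-76305603 in GRCm38.p6, as for the genes that follow) was at 48.4, 44.7 and 44.0 CPM in healthy blood, 66.2, 69.0 and 73.5 CPM in LLC blood, while LLC tumor 1 to 3 were at 56.8, 73.8 and 60.7 CPM. Every LLC library, from blood or tumor, was above every healthy library. The mean rose from 45.7 ± 2.37 to 69.6 ± 3.69 CPM in blood (SD, n = 3; log2 fold change 0.58 ± 0.09 SE, edgeR adjusted p 0.00193). LLC tumor differed from healthy blood by 0.65 ± 0.09 SE (edgeR adjusted p 0.000145). Between LLC tumor and LLC blood the log2 difference was 0.07, with a 95% interval of -0.13 to 0.26. Both calls held in every alternative setting tried, with a log2 fold change in blood of 0.51 to 0.63.

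Arntl (ENSMUSG00000055116, chr7:113178471-113314126), the partner of Clock and the gene on which REV-ERB proteins act, was at 16.0, 14.9 and 15.5 CPM in healthy blood, 13.0, 14.6 and 14.8 CPM in LLC blood, while LLC tumor 1 to 3 were at 9.03, 15.5 and 12.9 CPM. LLC blood lay just below healthy blood without overlap, and LLC tumor overlapped both. LLC tumor 1 was lowest, at 11.3 CPM after the TMM correction. No comparison passed the test. The log2 fold change was -0.15 between the blood groups (95% interval -0.44 to 0.13, edgeR adjusted p 0.427) and -0.0037 for tumor against LLC blood (95% interval -0.30 to 0.29). Each interval leaves out a 1.5-fold change, which is 0.58 on this scale.

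Of the Per genes, which encode the repressors that accumulate over the cycle, Per1 differed between groups. Per1 (ENSMUSG00000020893, chr11:69095108-69109965) was at 140.7, 58.2 and 47.7 CPM in healthy blood, 40.1, 37.7 and 53.4 CPM in LLC blood, while LLC tumor 1 to 3 were at 169.7, 151.5 and 159.0 CPM. All tumor libraries were above all blood libraries, and healthy blood 1 stood far above the other blood libraries. Per1 rose 4.22-fold from LLC blood to LLC tumor (log2 fold change 2.08 ± 0.37 SE, edgeR adjusted p 0.00101), and the change was 1.87 to 2.25 over the alternatives, all called. Against healthy blood the rise was 1.15 ± 0.36 SE (edgeR adjusted p 0.0187). That value depended on healthy blood: it was 1.77 without library 1, and the call was lost without library 2 (0.91, adjusted p 0.0774) or library 3 (0.86, adjusted p 0.0602). In LLC blood against healthy blood the log2 fold change was -0.93 ± 0.37 SE (edgeR adjusted p 0.0982), and without healthy blood 1 it was -0.29. DESeq2 called it lower (-0.95, adjusted p 0.0314).

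Immediate early genes were high in the tumor libraries, as Per1 was. The 14 listed immediate early and dissociation genes, among them Fos, Junb, Atf3 and Dusp1, all had counts in every group. Their summed level was 6927, 4802 and 4655 CPM in healthy blood 1 to 3, 4575, 1728 and 1481 CPM in LLC blood 1 to 3, and 12321 to 14711 CPM in LLC tumor. The tumor libraries were highest in both measures, and healthy blood 1 was highest among the blood libraries. LLC blood 1 was high in these genes but not in Per1. From LLC blood to LLC tumor 13 of the 14 rose, and Ier2 was not called. Against healthy blood 9 rose, and Jun, Hspa1a, Hspa1b, Nr4a1 and Ier2 were not called. Their part in the Per1 result was not tested.

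Per2 (ENSMUSG00000055866, chr1:91415977-91459351), the partner of Per1 in the repressor complex, was at 5.72, 3.01 and 2.39 CPM in healthy blood, 3.25, 3.80 and 4.20 CPM in LLC blood, while LLC tumor 1 to 3 were at 1.63, 2.93 and 3.37 CPM. The groups overlapped, and the log2 fold changes were 0.0023 between the blood groups and -0.34 for tumor against LLC blood (edgeR adjusted p 1 and 0.436). Per3 (ENSMUSG00000028957, chr4:150997018-151044707), the least required of the Per genes for rhythm, was at 2.93, 2.21 and 1.72 CPM in healthy blood, 2.01, 1.87 and 1.98 CPM in LLC blood, while LLC tumor 1 to 3 were at 1.08, 3.90 and 3.46 CPM. The tumor libraries fell on both sides of the blood libraries. Its log2 fold change in tumor was 0.68 ± 0.39 SE against LLC blood (edgeR adjusted p 0.158) and 0.43 ± 0.39 SE against healthy blood (edgeR adjusted p 0.349). Per3 overlaps Uts2, which had 0 counts in every library. At these depths Per2 and Per3 had 18 to 87 and 12 to 44 counts per library, and their 95% intervals for LLC blood against healthy blood were wide, from -0.77 to 0.78 for Per2 and from -1.12 to 0.62 for Per3.

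The cryptochromes, which complete the repressor complex, showed no called change. Cry1 (ENSMUSG00000020038, chr10:85131700-85185054) was at 26.5, 20.9 and 18.9 CPM in healthy blood, 21.3, 25.5 and 27.6 CPM in LLC blood, while LLC tumor 1 to 3 were at 23.7, 23.9 and 24.8 CPM. Its groups overlapped, with a log2 fold change of 0.15 in LLC blood against healthy blood (95% interval -0.19 to 0.48, edgeR adjusted p 0.524). Against healthy blood the tumor value was 0.30 ± 0.15 SE (edgeR adjusted p 0.103), and without healthy blood 1 it was called, at 0.44 (edgeR adjusted p 0.0293). Cry2 (ENSMUSG00000068742, chr2:92403646-92434085) was at 11.9, 8.36 and 7.42 CPM in healthy blood, 10.1, 10.3 and 9.32 CPM in LLC blood, while LLC tumor 1 to 3 were at 7.70, 13.4 and 13.7 CPM. Its log2 fold change in tumor was 0.40 ± 0.21 SE against LLC blood (edgeR adjusted p 0.116) and 0.48 ± 0.21 SE against healthy blood (edgeR adjusted p 0.0619). The latter was called in 5 alternatives: with DESeq2 size factors (0.53), by DESeq2 (0.53), by limma-voom (0.72), and without healthy blood 1 (0.69) or LLC tumor 1 (0.61).

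Cry2 and Per3 split the tumor libraries in the same way, low in LLC tumor 1 and high in LLC tumor 2 and 3. Without LLC tumor 1 both were called in LLC tumor against LLC blood, at 0.58 for Cry2 (edgeR adjusted p 0.0228) and 1.04 for Per3 (edgeR adjusted p 0.0101). The fibroblast markers given above split the same way, and their part in these values was not tested. In LLC tumor 1, 4 of the 10 clock genes (Arntl, Per2, Per3 and Cry2) were at least 1.5-fold below the mean of the other tumor libraries, as were 26.1% of all genes tested. After TMM scaling, an alternative chosen after seeing the data, 1 of the 10 was (Per3), beside 16.2% of all genes, and Nr1d1 was that far above.

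Of the REV-ERB genes, Nr1d1 rose in tumor and Nr1d2 was not called. Nr1d1 (ENSMUSG00000020889, chr11:98767932-98775377) was at 6.65, 2.15 and 3.13 CPM in healthy blood, 4.88, 4.01 and 2.75 CPM in LLC blood, while LLC tumor 1 to 3 were at 12.6, 10.2 and 8.81 CPM. All tumor libraries were above all blood libraries. It rose 3.21-fold from LLC blood to LLC tumor (log2 fold change 1.68 ± 0.42 SE, edgeR adjusted p 0.00622) and by a log2 fold change of 1.61 ± 0.41 SE against healthy blood (edgeR adjusted p 0.0069). In LLC blood against healthy blood it was -0.07 ± 0.42 SE, and 0.51 without healthy blood 1 (edgeR adjusted p 0.924 and 0.376). Without healthy blood 1 the tumor value against healthy blood was 2.18. Nr1d1 overlaps the gene Thra, which encodes the thyroid hormone receptor alpha, and whether the counting used strand is not given in the sources used here. Thra was at 12.2, 25.5 and 28.3 CPM in LLC tumor 1 to 3, lowest where Nr1d1 was highest, and at 9.69 to 14.8 CPM in blood.

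Nr1d2 (ENSMUSG00000021775, chr14:18204056-18239106) was at 41.7, 28.9 and 26.9 CPM in healthy blood, 29.5, 22.3 and 28.4 CPM in LLC blood, while LLC tumor 1 to 3 were at 19.9, 21.4 and 22.9 CPM. The tumor libraries lay below healthy blood without overlap, and the blood groups overlapped (log2 fold change -0.30 ± 0.18 SE, edgeR adjusted p 0.245). The log2 fold change in LLC tumor against healthy blood was -0.43 ± 0.18 SE and missed the threshold (edgeR adjusted p 0.058). It was called lower in 7 alternatives, at -0.41 to -0.60. Against LLC blood it was -0.12 (95% interval -0.53 to 0.28). Between LLC blood and LLC tumor the interval of Nr1d1, 0.74 to 2.62, and that of Nr1d2 do not overlap, and the difference between the genes was not tested.

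Dbp (ENSMUSG00000059824, chr7:45705100-45710203), the D-box activator, had the fewest counts of the clock genes, with 37.0, 24.6 and 23.2 estimated counts in healthy blood, 10.6, 9.48 and 26.8 in LLC blood, while LLC tumor 1 to 3 had 8.71, 7.82 and 11.9. In CPM this was 2.64, 1.51 and 1.43, then 1.01, 0.656 and 1.29, and then 0.786, 0.694 and 1.03. Every healthy library was above every LLC library. The log2 fold change was -0.91 ± 0.39 SE in LLC blood and -0.94 ± 0.41 SE in LLC tumor against healthy blood, and neither passed the test (edgeR adjusted p 0.128 and 0.0672). Without healthy blood 1 these values were -0.58 and -0.62. Dbp overlaps Sphk2, a sphingosine kinase gene at 61.5 to 96.6 CPM, and its counts were not whole numbers in any of the 9 libraries. Between LLC tumor and LLC blood the log2 difference of Dbp was -0.03, and at these counts its 95% interval ran from -0.99 to 0.92.

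Healthy blood 1 stood apart within its own group in the clock genes. All 10 genes were higher there than in both other healthy libraries, and the differences were smallest in Arntl and Clock. The ratio to the pooled other libraries was 2.66 for Per1 (95% exact interval 2.49 to 2.84, for counting error only), 2.52 for Nr1d1 (1.86 to 3.42), 2.12 for Per2 (1.54 to 2.90) and 1.80 for Dbp (1.14 to 2.81). It was lower for Cry1 (1.33), Per3 (1.492), Nr1d2 (1.495) and Cry2 (1.504), and of these 4 the interval reached 1 for Per3. Clock had a ratio of 1.09 (0.99 to 1.20) and Arntl one of 1.05 (0.90 to 1.24), and both intervals hold 1. On the log2(CPM + 0.5) scale 4 of the 10 clock genes (Per1, Per2, Nr1d1 and Dbp) were at least 1.5-fold above the mean of the other healthy libraries, beside 1.69% of all genes tested. This library and this threshold were chosen after the values were seen. Tef, which encodes another D-box activator and was also picked after its values were seen, had a ratio of 2.09 (1.90 to 2.30).

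The summed immediate early genes and glucocorticoid targets were also high in healthy blood 1. Beside the immediate early genes given above, the 6 listed glucocorticoid targets, which include Tsc22d3 and Fkbp5, summed to 1191 CPM there and to 748.7 and 693.6 CPM in healthy blood 2 and 3. That list had sums of 564.3 to 746.2 CPM in LLC blood and 564.7 to 995.3 CPM in LLC tumor. Its members went both ways from LLC blood to LLC tumor: Sgk1, Klf9 and Fkbp5 rose, and Tsc22d3, Zbtb16 and Cebpd fell. The part of either list, or of the hour of collection, in these values was not tested.

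**Figure D3:**
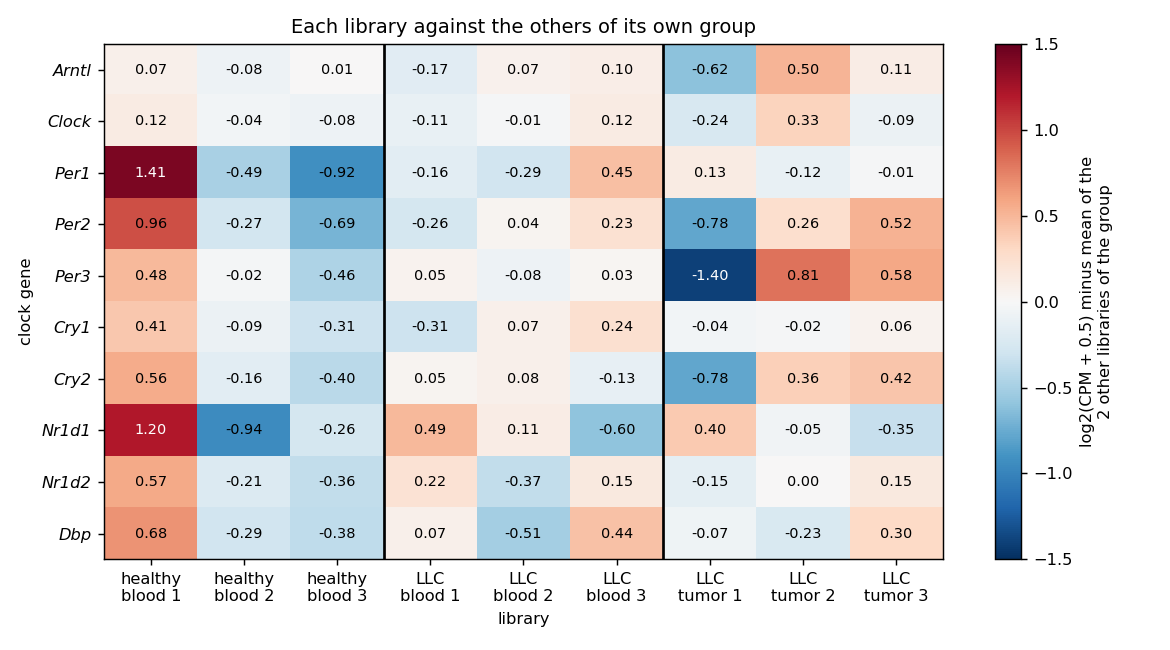
Difference of each library (columns) from the mean of the 2 other libraries of its group for each clock gene (rows), as a difference of log2(CPM + 0.5). Healthy blood 1 is above its group in all 10 genes, by 0.07 in Arntl, 0.12 in Clock and 0.41 to 1.41 in the others, and LLC tumor 1 is below its group by 1.40 in Per3 and by 0.78 in Per2 and Cry2.

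A balance within each library, which library scaling barely affects, set the activators against their targets. It is the mean log2(CPM + 0.5) of Arntl and Clock minus that of Per1, Per2, Per3, Nr1d1, Nr1d2 and Dbp. It was 1.25, 1.98 and 2.10 in healthy blood, 2.16, 2.43 and 2.29 in LLC blood, while LLC tumor 1 to 3 were at 1.61, 1.89 and 1.57. The LLC blood libraries had the highest values and overlapped neither other group, while healthy blood and LLC tumor overlapped. Group means were 1.78 ± 0.46, 2.29 ± 0.14 and 1.69 ± 0.18 (SD, n = 3). No test was made, since the genes were chosen with results known. The single pairs behind it differed in direction: Arntl minus Nr1d1 was 1.21 to 2.54 in healthy blood, 1.33 to 2.24 in LLC blood and -0.46 to 0.58 in LLC tumor, whereas Arntl minus Dbp was 2.39 to 3.06, 3.09 to 3.71 and 2.89 to 3.75. Relative to Arntl, Nr1d1 in the tumor libraries lay outside its range in blood, while Dbp in tumor overlapped LLC blood. With Arntl as the only activator the group means were 1.01, 1.16 and 0.53, and the libraries of healthy blood and LLC blood overlapped. The separation of the blood groups in this balance thus depended on including Clock, the gene called between them.

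**Figure D4:**
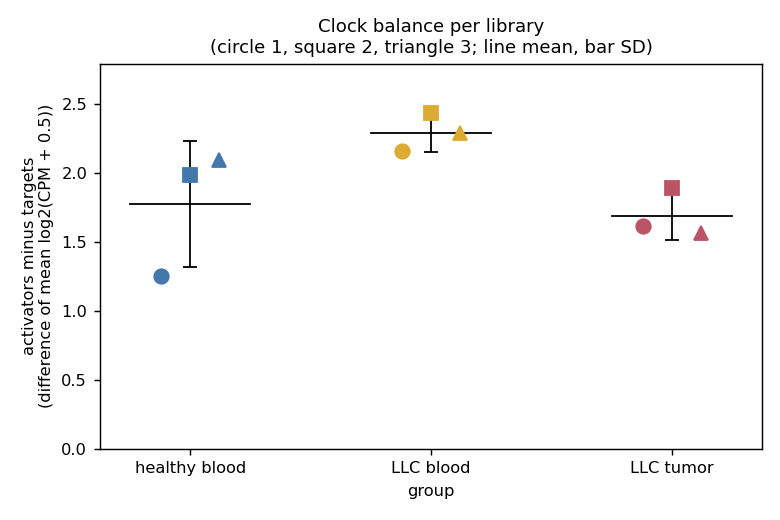
Difference between the mean log2(CPM + 0.5) of the activators and that of their targets (vertical axis, from 0) in each library; symbols are libraries, lines means and bars the SD of 3. LLC blood lies at 2.16 to 2.43, above healthy blood (1.25 to 2.10) and LLC tumor (1.57 to 1.89).

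The pattern over all 9 libraries was compared by the root-mean-square difference of centred log2(CPM + 0.5) values, as a description. Within the clock genes the closest pair was Nr1d2 and Dbp, at 0.19, followed by Per3 and Cry2 at 0.22. Dbp and Per3 had means of only 1.23 and 2.35 CPM, where the added 0.5 CPM shrinks differences. Among 9709 other genes at a mean of 5 CPM or more, Rae1, Fbxl19 and Rrn3 were closest to Arntl, all at 0.07. Closest to Dbp were Bri3 at 0.18, Ccdc107 at 0.18 and Papd7 at 0.20. Bri3 was at 70.4 to 89.3 CPM in healthy blood, 44.1 to 53.6 CPM in LLC blood and 44.9 to 49.9 CPM in LLC tumor. The libraries share their scaling, which enters every such distance.

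The wider clock pathway held called genes in each comparison, and its counts are set beside those of all genes. Of 28 further genes, 23 were tested. Npas2, which can take the place of CLOCK, had at most 3 counts in any library and was not tested. In LLC blood against healthy blood 3 rose, Nfil3, Gsk3b and Usp2, and 0 fell (with no adjustment of p, 2 were lower at the same threshold, and DESeq2 called 1 and limma-voom 4 lower). In LLC tumor against LLC blood 13 rose and 1 fell, Nono, and with library totals in place of TMM 12 rose and 4 fell. In LLC tumor against healthy blood 15 rose and 3 fell, Tef, Csnk1e and Nono. The median log2 fold change was -0.03, 0.72 and 0.87, beside the medians of all genes given above. In both directions together 3, 14 and 18 of the 23 were called, beside 23.6%, 61.3% and 66.5% of all genes. Among all genes, 14.0% were higher and 9.61% lower in the first comparison. The shares were 29.6% and 31.7% in the second and 33.5% and 33.0% in the third. This list includes regulators with many roles outside the clock.

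Bhlhe40, which encodes the E-box repressor DEC1, had the largest tumor change among the called pathway genes at a mean of 5 CPM or more. It was at 35.0, 34.3 and 37.3 CPM in healthy blood, 45.9, 43.6 and 33.4 CPM in LLC blood, while LLC tumor 1 to 3 were at 940.7, 665.7 and 662.1 CPM. Blood groups overlapped and tumor lay far above both, with a 21.8-fold rise over LLC blood (log2 fold change 4.44 ± 0.24 SE, edgeR adjusted p 7.23e-07). Bhlhe40 is also known as a target of hypoxia. The 12 hypoxia genes summed to 930.7 to 965.8 CPM in healthy blood, 1107 to 1140 CPM in LLC blood and 7173 to 9488 CPM in LLC tumor. Of these, 0 were called between the blood groups. From LLC blood to LLC tumor 11 rose, and Car9 was not called. The part of the hypoxia genes in the Bhlhe40 result was not tested.

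The competing factors at ROR elements and D-boxes rose as well. Nfil3 was at 59.9 to 73.1 CPM in healthy blood, 93.7 to 95.1 CPM in LLC blood and 367.7 to 421.5 CPM in LLC tumor. No groups overlapped, and both steps were called (log2 fold change 0.45 ± 0.09 SE in blood, edgeR adjusted p 0.00663, and 2.29 ± 0.09 SE from LLC blood to tumor, edgeR adjusted p 2.08e-07). Rora was at 5.90 to 7.54, 8.03 to 9.56 and 11.6 to 13.2 CPM in the same order. Its rise from LLC blood to tumor was called (0.72 ± 0.17 SE, edgeR adjusted p 0.00437), and its difference in blood was not (0.33 ± 0.17 SE, edgeR adjusted p 0.184). The D-box activator Tef fell from healthy blood to LLC tumor (log2 fold change -0.96 ± 0.31 SE, edgeR adjusted p 0.0192), with healthy blood 1 at 57.3 CPM and the other healthy libraries at 26.98 and 27.8 CPM. That call was lost without healthy blood 1, without LLC tumor 2, under limma-voom and at an adjusted p under 0.01. The call of Csnk1e was lost without healthy blood 1, LLC tumor 2 or LLC tumor 3, and at that stricter threshold.

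Other pathway genes rose in tumor too. Nampt, a clock-driven gene for the rate-limiting enzyme of NAD salvage, was at 135.7 to 145.4 CPM in LLC blood and 300.9 to 451.7 CPM in LLC tumor (log2 fold change 1.61 ± 0.21 SE, edgeR adjusted p 0.000118). Noct, listed under its older symbol Ccrn4l and encoding nocturnin, was at 20.2 to 22.1 CPM and 40.2 to 78.0 CPM in those groups (1.59 ± 0.30 SE, edgeR adjusted p 0.00122). Tipin, which encodes the partner of TIMELESS in replication fork protection, rose by 1.16 ± 0.24 SE (edgeR adjusted p 0.00251). Its CPM in LLC tumor 1, 7.95, lay within the LLC blood range of 4.69 to 8.23, before the TMM correction, which raises that library. Thra had a log2 fold change of 0.83 ± 0.22 SE (edgeR adjusted p 0.00964), which was not called with library totals in place of TMM. Its CPM in LLC tumor 1 lay within the blood range, again before the TMM correction. In blood, Gsk3b, a kinase that phosphorylates clock proteins, rose by 0.34 ± 0.10 SE (edgeR adjusted p 0.0396). Its call was lost without any 1 of the healthy blood libraries, without LLC blood 2 or 3, and with a replicate block. The third gene called there, Usp2, a deubiquitinase named because the count is small, rose from 1.34 to 3.67 CPM (1.42 ± 0.27 SE, edgeR adjusted p 0.00566).

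**Figure D5:**
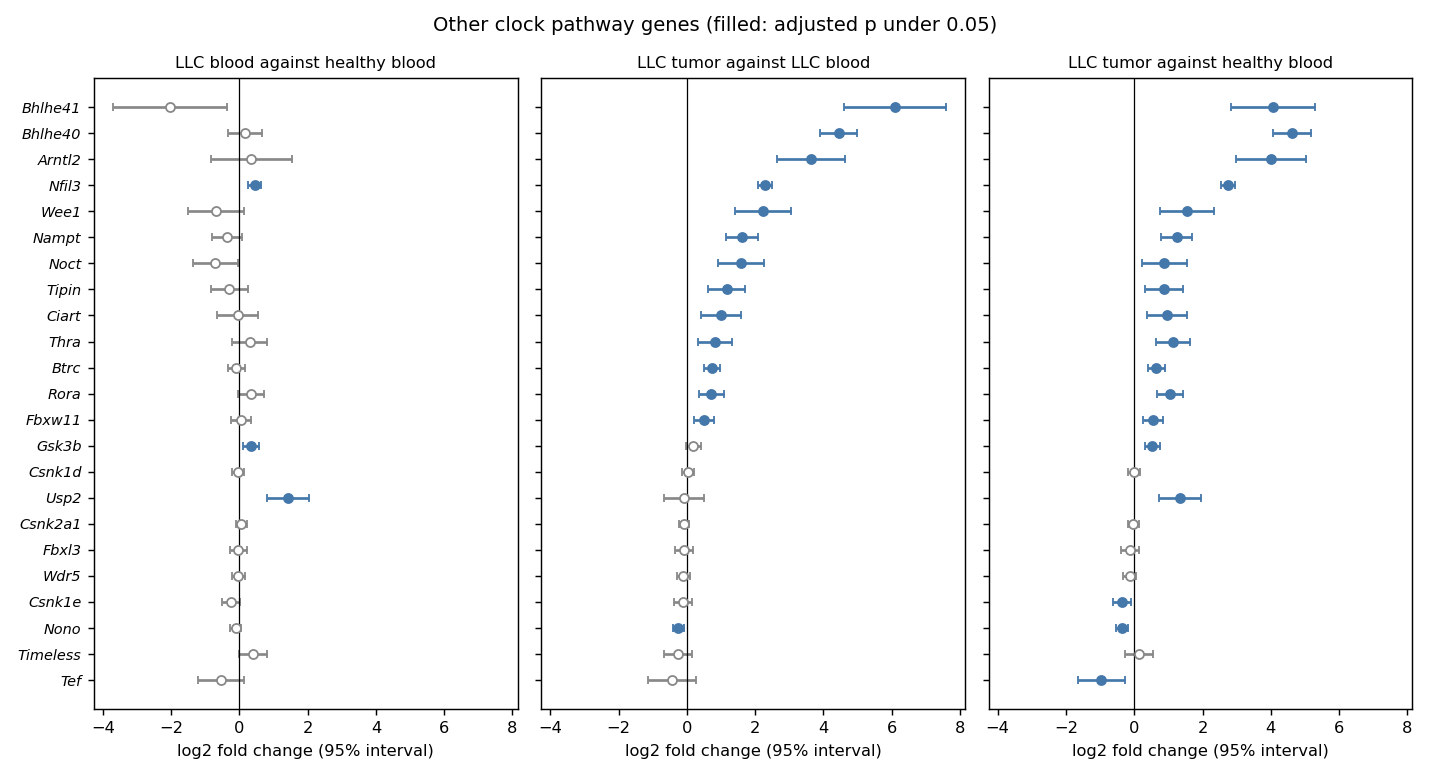
Log2 fold change (horizontal axis) of the 23 tested further clock pathway genes with 95% intervals from the edgeR fit, in the 3 comparisons; filled points have an adjusted p under 0.05. In blood 3 points are filled, and in LLC tumor against LLC blood 14 are, 13 of them above 0.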

How the data were processed

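RNA-seq libraries were made from TRIzol RNA with a TruSeq kit, per the labels' protocols. The authors deposited estimated counts (expected counts, not normalized) per gene symbol, and 8.56% to 9.73% of the values per library were not whole. The submitters' processing notes list Trim Galore, cutadapt 3.4, STAR 2.6.1d, Salmon 1.9.0, edgeR and build mm10 without saying which made this table. A second deposited table, rescaled for part of the genes, and the other 22 of the 31 samples of the series were not used here. The 6 blood columns are headed BM, taken here to mean blood monocyte, since titles and protocol name blood. BM could also stand for bone marrow, and the files do not settle it.

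After rounding, edgeR 4.0.16 (R 4.3.3, with limma 3.58.1 and DESeq2 1.42.0 for alternatives) fitted all 9 libraries in one quasi-likelihood model across all genes with group as the only term, TMM factors and filterByExpr. A standard error is the absolute log2 fold change divided by the square root of F, and 95% intervals use the fit's degrees of freedom. The pipeline was tested on simulated data for LLC blood against healthy blood only, so that run does not cover the tumor comparisons. Positions and promoters come from RefSeq, build GRCm38.p6, and Ensembl identifiers from a table of symbols, all 10 matched. Counting intervals are exact binomial ones.

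The clock genes, the further lists and the naming rule were chosen with earlier results of these data known. Beyond the 10 clock genes, pathway genes were named when called with a mean of at least 5 CPM (at most 5 per comparison by size of change), plus Npas2, Rora, Nfil3, Bhlhe40 and Thra. For Arntl and Dbp the 3 genes closest in pattern were named.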

Additional observations from a re-analysis of the deposited data

How the results depend on the processing

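The 10 clock genes in 3 comparisons gave 561 values under alternative settings, of which 535 kept their side of the threshold, 23 became called and 3 lost their call, all 3 for Per1 in LLC tumor against healthy blood (without healthy blood 2 or 3, and at an adjusted p under 0.01). No called change reversed. Values that were never called changed sign in 32 cases, between -0.23 and 0.51. Where no reason is given, the cause was not tested. For LLC blood against healthy blood the number of clock genes called was 2 under DESeq2 (with Per1 lower) and 1 in each fit that left out one library. For LLC tumor against LLC blood it was 4 under limma-voom with sample quality weights, and 2 to 4 with one library left out (4 without LLC tumor 1). For LLC tumor against healthy blood it was 5 under upper-quartile factors and with library totals only (both with Nr1d2 and Dbp lower), 6 under limma-voom, and 3 to 5 with one library left out (5 without healthy blood 1 or LLC tumor 1). Library totals shifted the median of all genes by -0.20 in LLC tumor against LLC blood and by -0.17 against healthy blood, and upper-quartile factors by -0.10 against healthy blood, so relative to these shifts Nr1d2 (-0.60 and -0.53) and Dbp (-1.11 and -1.04) stayed close to their reported values. A filter at a mean of 5 CPM leaves out Per2, Per3 and Dbp, whose low counts limit what could be detected.

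For the further pathway genes the count in blood was 5 with only the 6 libraries compared, 10 under limma-voom, and 2 to 7 with one library left out (7 without LLC tumor 1). In tumor it was 14 to 15 against LLC blood and 16 to 19 against healthy blood with one library left out.

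The balance of activators and targets in LLC blood was 2.45 with a pseudocount of 0.1 CPM, 1.93 with 2 CPM, 1.97 with the Cry genes among the targets and 1.16 with Arntl as the only activator. In LLC tumor it was 1.36 with 2 CPM, 1.45 with the Cry genes and 0.53 with Arntl alone, and in healthy blood 1.01 with Arntl alone. These settings change the quantity by construction. With one library left out, chosen after seeing the data, it was 1.62 to 2.04 in healthy blood, 2.22 to 2.36 in LLC blood and 1.59 to 1.75 in LLC tumor. LLC blood had the highest mean in each of these settings, but with Arntl alone its libraries overlapped those of healthy blood.

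Replicate numbers are shared between groups, and the labels do not say whether they pair the libraries. Deviations of same-numbered libraries from their group means correlated at 0.30, 0.16 and 0.07 between healthy blood and LLC blood. They correlated at -0.12 to 0.14 between LLC blood and LLC tumor, and at 0.03 to 0.09 between healthy blood and LLC tumor. For libraries with different numbers the ranges, in the same order of groups, were -0.31 to 0.19, -0.11 to 0.14 and -0.08 to 0.04. With 3 libraries per group, these values cannot settle whether the libraries are paired. With a replicate block 1, 2 and 4 clock genes were called in the 3 comparisons, the added one being Nr1d2 in LLC tumor against healthy blood (-0.41). For the further pathway genes it gave 2, 14 and 18.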
